A study of Mus musculus with 2 samples.

Results

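The genes of the hypoxia and VEGF axis examined were *Hif1a*, *Epas1*, *Arnt*, *Egln1*, *Egln2*, *Egln3*, *Vhl*, *Vegfa*, *Vegfb* and *Flt1*. They were chosen by symbol, and all 10 were found once among the 37451 genes of the deposited expression table. The table holds 1 RNA-Seq library of WT BMDMs (C57BL/6) and 1 library of ΔM BMDMs (C57BL/6 TTP fl/fl LysMCre), in which Cre from the lysozyme M locus deletes the TTP gene *Zfp36* in myeloid cells. BMDMs were grown with CSF-1 from the marrow of WT littermates or ΔM mice aged 7 to 9 weeks. Both cultures received 4-thiouridine (4sU, 100 μM, 16 h), and LPS was given at 10 ng/ml over 6 h by the treatment protocol, while a numeral after LPS in the sample titles is not explained. Both libraries are thus LPS-treated, and unstimulated or hypoxic cells were not analysed here. How many mice each culture came from is not given in the sources used here. With 1 library per genotype there is no replicate check and no p-value. Values are FPKMs, which are levels per exon length and can be compared between genes. All intervals are 95% Poisson counting intervals at an estimated depth of about 37250000 fragments in WT and 33100000 in ΔM, and they cover counting error only.

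HIF is a transcription factor made of an oxygen-labile α subunit (*Hif1a* or *Epas1*) and a stable β partner (*Arnt*). At normal oxygen, prolyl hydroxylases encoded by *Egln1*, *Egln2* and *Egln3* mark the α subunit, and the VHL protein then recruits a ubiquitin ligase that sends it to the proteasome. Stabilized HIF turns on genes such as *Vegfa*, whose product acts on the receptors encoded by *Flt1* and *Kdr*. In macrophages, LPS induces *Hif1a* through NF-κB also without hypoxia, and *Flt1* is a VEGF receptor of the monocyte lineage. TTP binds AU-rich elements in 3′ UTRs and can promote decay of the mRNA, and *Vegfa* mRNA is known to carry such elements.

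AU-rich sequences in the members are shown first, because TTP is known to recognize sites of this type. Motifs were searched for in the annotated 3′ UTRs (NCBIM37, the build of mm9), as ATTTA pentamers (AUUUA in the mRNA) and as TATTTAT heptamers (UAUUUAU). The heptamer was present 3 times in the 3′ UTR of *Hif1a*, 3 times in that of *Vegfa* and 1 time in that of *Vhl*, and capitals mark it in the lines that follow. It was also present 1 time each in *Arnt*, *Egln3* and *Flt1*, whose sequences are not shown. The *Hif1a* heptamers lie on the plus strand in exon 15 of 15, at chr12:75046790-75046818, chr12:75046992-75047020 and chr12:75046996-75047024. The second and the third overlap. The *Vegfa* heptamers lie on the minus strand in the last exon, at chr17:46154544-46154572, chr17:46154115-46154143 and chr17:46154012-46154040. The *Vhl* heptamer lies on the plus strand in the last exon at chr6:113580683-113580711. These coordinates include 11 flanking bases on either side.
*Hif1a*, 111 nt after the stop codon: gctcagcagtcTATTTATattttctatat
*Hif1a*, 313 nt after the stop codon: atgcaccttttTATTTATttatttttggt
*Hif1a*, 317 nt after the stop codon: acctttttattTATTTATttttggtgagg
*Vegfa*, 1246 nt after the stop codon: ttaatttcaacTATTTATgagatgtatct
*Vegfa*, 1675 nt after the stop codon: ttgttatcattTATTTATtggtgctactg
*Vegfa*, 1778 nt after the stop codon: tccgtagtacaTATTTATttttaaacagc
*Vhl*, 1131 nt after the stop codon: gtataatttttTATTTATttttaatcccc

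Motifs were counted on the sense strand in the longest annotated 3′ UTR of each gene, and a heptamer contains a pentamer. *Vegfa* held 9 pentamers in 1865 nt and *Hif1a* 8 in 1827 nt, which were the highest densities of the 10 genes at 4.83 and 4.38 per kb. Of the 2807 3′ UTRs of protein-coding genes within 20% of the length of that of *Vegfa*, 95.7% held fewer pentamers, and 35.6% held a heptamer. For *Hif1a*, 93.4% of 2813 UTRs of similar length held fewer pentamers, and 35.3% held a heptamer. The other members were closer to or below the typical UTR of their length. *Flt1* held 8 pentamers in 3971 nt, where the median UTR of that length holds 6, in a transcript of 13 exons. The last of these pentamers lies at chr5:148447335-148447339, while the gene, on the minus strand, runs on to 148373180. This 3′ UTR is thus that of a transcript ending inside the gene, and 3′ UTRs of other *Flt1* transcripts were not counted. *Egln3* held 4 pentamers in 1643 nt against a median of 2. *Arnt* and *Egln1* held 3 each, equal to the median, *Epas1* held 2 and *Vhl* held 1 against a median of 3, and the short 3′ UTRs of *Egln2* (498 nt) and *Vegfb* (417 nt) held 0. Heptamers occurred once each in *Arnt*, *Egln3*, *Vhl* and *Flt1*, and in 23.9% of the 19999 protein-coding genes with an annotated 3′ UTR. A motif match is a property of the sequence and does not show binding.

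**Figure D1:**
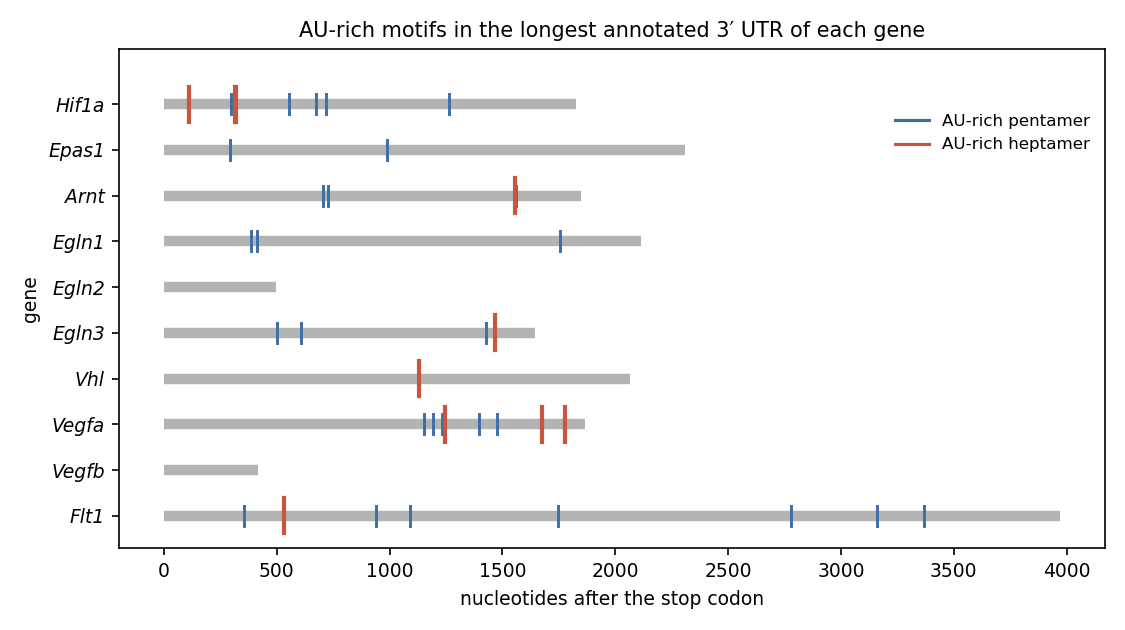
Positions of AU-rich pentamers (blue) and heptamers (red) in the longest annotated 3′ UTR of each gene (gray bar), in nucleotides after the stop codon. The *Vegfa* motifs all lie at least 1152 nt after the stop codon, and 2 *Hif1a* heptamers overlap at 313 and 317 nt.

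The labels were checked before the members were compared. *Zfp36* was at 65.3 FPKM in WT against 16.7 in ΔM, 0.256 times the WT level (interval 0.238 to 0.276). The 6 macrophage markers ranged from 104 to 2481 FPKM in WT and from 110 to 1356 in ΔM. The most abundant of them, *Lyz2*, encodes lysozyme M, whose locus carries the Cre, and was at 2481 FPKM in WT against 1356 in ΔM. It was the only 1 of the 6 past 1.5-fold, and the ratios of ΔM to WT of the other markers ran from 0.896 for *Itgam* to 1.14 for *Csf1r*. Summed levels of the markers of other cells were low in WT and ΔM, at 0.63 and 0.38 FPKM for 5 endothelial genes, 0.71 and 0.34 FPKM for 4 fibroblast genes, 0 and 0.05 FPKM for 3 T and B cell genes and 0.09 and 0.46 FPKM for 4 neutrophil genes. *Cldn5*, *Cd3e*, *Cd3g*, *Ly6g* and *Elane* were listed at 0 in both libraries, and the highest in each list by the mean of both libraries were *Pecam1* (0.58 and 0.33 FPKM), *Pdgfrb* (0.27 and 0.13 FPKM), *Cd79a* (0 and 0.05 FPKM) and *Camp* (0 and 0.41 FPKM). In such bulk RNA, fewer cells of a type and less RNA per cell cannot be told apart.

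The genes of the axis were expressed at very different levels. With median transcript lengths, the WT and ΔM counting intervals of a gene overlapped for all 10. With the longest annotated transcript, the upper WT limit of *Vhl* was 10.4 FPKM in place of 11.6. Whether its intervals overlap at that length was not examined. Of the 10 genes, 7 had a mean of at least 1 FPKM, and of these 7, 0 were at least 1.5-fold higher and 0 at least 1.5-fold lower in ΔM. Folds for such counts were calculated after adding 1 FPKM to both values. Among the 8078 protein-coding genes that reached this mean, 4.82% were at least 1.5-fold higher and 5.36% at least 1.5-fold lower in ΔM. The median log2 ratio of ΔM to WT on that scale was 0.01 for the 7 genes, with a range from -0.09 to 0.33, and -0.0015 for the 8078 genes. The quartiles of the latter were -0.19 and 0.18. *Epas1*, *Egln3* and *Vegfb* did not reach 1 FPKM on average, and their levels rest on few fragments.

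**Figure D2:**
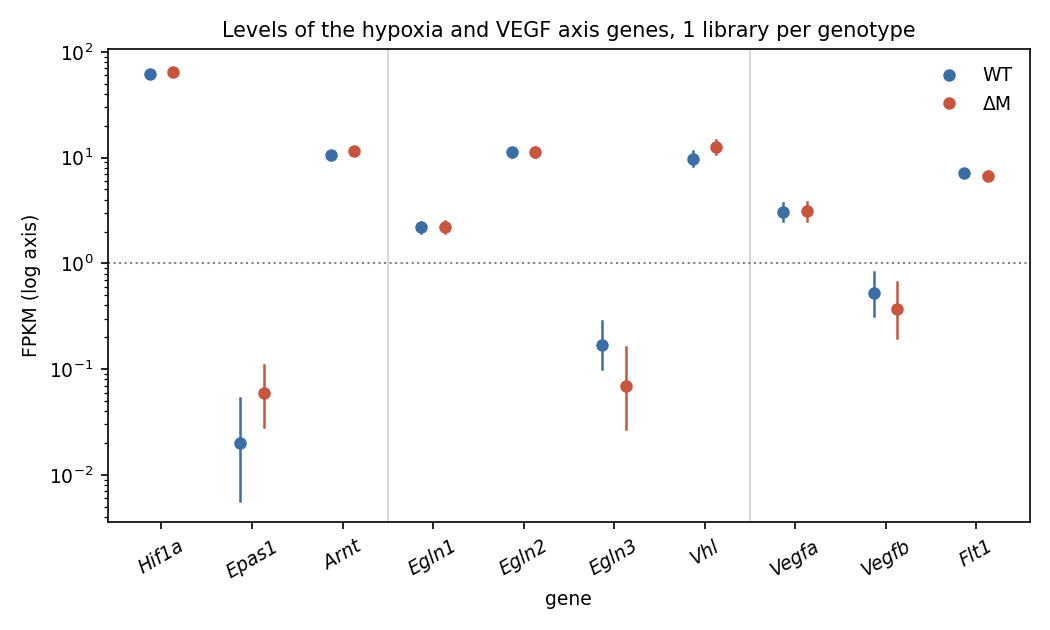
FPKM of each gene in the WT (blue) and ΔM (red) library on a log axis, with 95% counting intervals as vertical lines and 1 FPKM as a dotted line. Gray lines separate HIF subunits, hydroxylases with *Vhl*, and VEGF genes. *Hif1a* was above 60 FPKM in both libraries, 6 genes lay between 2.20 and 12.6 FPKM, and *Epas1*, *Egln3* and *Vegfb* lay below 1 FPKM.

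Among the HIF subunits, *Hif1a* was the most abundant member in both libraries. *Hif1a* (ENSMUSG00000021109, chromosome 12, 75002362 to 75048517, plus strand) was at 61.8 FPKM in WT (59.8 to 63.9) and 64.0 FPKM in ΔM (61.9 to 66.3). The ratio of ΔM to WT was 1.04, with a counting interval from 0.988 to 1.09. Its level exceeded that of 97.1% of the protein-coding genes in WT and 97.3% in ΔM. A noncoding gene on the opposite strand, *Gm15283*, overlaps *Hif1a* and was at 0.47 FPKM in WT against 0.23 in ΔM. Whether the authors counted by strand is not given in the sources used here, but these levels are small beside that of *Hif1a*.

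*Arnt*, the β partner, was at 10.5 FPKM in WT (9.84 to 11.2) and 11.5 FPKM in ΔM (10.7 to 12.2). Its ratio of ΔM to WT was 1.09 (0.994 to 1.195). *Hif1a* mRNA thus exceeded *Arnt* mRNA per length 5.89-fold in WT (5.48 to 6.33) and 5.59-fold in ΔM (5.196 to 6.02). *Epas1*, which encodes the α subunit best known from endothelium, was at 0.02 FPKM in WT (0.00573 to 0.054) and 0.06 FPKM in ΔM (0.028 to 0.109), about 3.8 and 10.1 fragments. The ratio of 3 had an interval from 0.812 to 12.3 and gives no direction. At these levels *Hif1a* was 3091-fold above *Epas1* in WT (1147 to 10795) and 1067-fold in ΔM (588 to 2259).

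Of the 3 prolyl hydroxylase genes, *Egln2* was the most abundant and *Egln3* the least. *Egln2* was at 11.2 FPKM in WT (10.1 to 12.4) and 11.3 FPKM in ΔM (10.1 to 12.5). Its ratio of ΔM to WT was 1.002 (0.862 to 1.16). *Egln1*, the main oxygen sensor for HIF in most tissues, was at 2.20 FPKM in WT (1.95 to 2.48) and 2.21 FPKM in ΔM (1.94 to 2.504), with a ratio of 1.005 (0.839 to 1.195). *Egln2* therefore exceeded *Egln1* 5.10-fold in WT (4.35 to 5.98) and 5.09-fold in ΔM (4.31 to 6.04). The end of *Egln2* overlaps *Cyp2t4* on the opposite strand, which was at 0.02 FPKM in WT against 0.05 in ΔM.

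*Egln3*, itself a gene that HIF induces, was at 0.17 FPKM in WT (0.0998 to 0.284) and 0.07 FPKM in ΔM (0.027 to 0.160), about 15.6 and 5.7 fragments. The ratio of 0.412 had an interval from 0.135 to 1.14, so a difference was not detectable at this depth. *Vhl* showed the largest log2 ratio of the 7 genes above 1 FPKM. *Vhl* (ENSMUSG00000033933, chromosome 6, 113573953 to 113581627, plus strand) was at 9.79 FPKM in WT (8.26 to 11.6) and 12.6 FPKM in ΔM (10.7 to 14.7). The ratio of ΔM to WT was 1.28, with an interval from 1.01 to 1.62, or from 1.17 to 1.4 with the longest annotated transcript in place of the median length. Of the 8078 protein-coding genes, 72.2% differed less between the libraries than *Vhl*. With the longest transcript, the intervals also left out 1 for *Hif1a* (1.01 to 1.07), *Arnt* (1.02 to 1.17) and *Flt1* (0.867 to 0.996), so counting error alone does not settle whether these small ratios differ from 1.

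**Figure D3:**
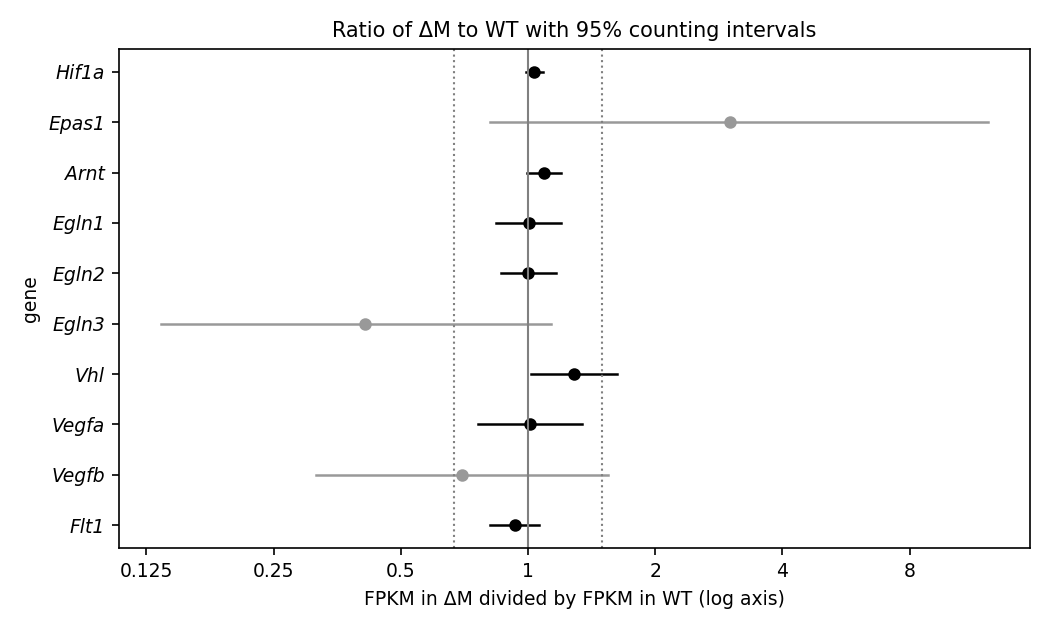
FPKM in ΔM divided by FPKM in WT for each gene (point) on a log axis, with the 95% counting interval (line). Black marks genes whose mean reached 1 FPKM and gray those below, the solid line is a ratio of 1 and dotted lines are 1.5-fold in either direction. With median transcript lengths, the intervals of 9 genes included 1, and that of *Vhl* started at 1.01.

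Among the VEGF ligands of the axis, *Vegfb* was below 1 FPKM. *Vegfa* exceeded 74.8% of the protein-coding genes in WT and 74.7% in ΔM. *Vegfa* (ENSMUSG00000023951, chromosome 17, 46153942 to 46169326, minus strand) encodes the main angiogenic factor of the family. It was at 3.07 FPKM in WT (2.51 to 3.69) and 3.10 FPKM in ΔM (2.51 to 3.77). The ratio of ΔM to WT was 1.01 (0.763 to 1.34), or 0.870 to 1.17 with the longest annotated transcript. Counting error alone thus leaves room for differences of up to 1.34-fold, and variation between cultures is not covered. The 2 members with the most AU-rich pentamers per kb, *Vegfa* and *Hif1a*, had ratios of 1.01 and 1.04. Whether TTP acts on these mRNAs was not tested here. *Vegfb*, a ligand of *Flt1* linked to lipid transport, was at 0.53 FPKM in WT (0.321 to 0.833) and 0.37 FPKM in ΔM (0.196 to 0.663), with a ratio of 0.698 (0.315 to 1.54).

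*Flt1*, the receptor, was at 7.23 FPKM in WT (6.60 to 7.89) and 6.72 FPKM in ΔM (6.09 to 7.41). Its ratio of ΔM to WT was 0.929 (0.815 to 1.06). The annotated gene has 5 transcripts, and 1 gene value cannot separate the membrane form from the secreted form that lacks the kinase domain. *Kdr*, the other main receptor for VEGF-A, was at 5.59 FPKM in WT (5.22 to 5.97) and 3.23 FPKM in ΔM (2.94 to 3.55), 0.578 times the WT level (0.515 to 0.649). The level of *Flt1* relative to *Kdr* was 1.29 in WT (1.16 to 1.44) and 2.08 in ΔM (1.81 to 2.38). The endothelial markers lay at or below 0.58 FPKM in both libraries, under the level of *Kdr*, and their part in the difference was not tested.

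The order of levels in WT was *Hif1a*, *Egln2*, *Arnt*, *Vhl*, *Flt1*, *Vegfa*, *Egln1*, *Vegfb*, *Egln3* and *Epas1*. Intervals in this paragraph are those with median transcript lengths. In WT, the neighbors *Egln2* and *Arnt* and the neighbors *Arnt* and *Vhl* overlapped in their intervals, and the other neighbors did not. In ΔM *Vhl* stood second, ahead of *Arnt* and *Egln2*, again with overlapping intervals among the 3 genes. *Egln3* and *Epas1* also overlapped in ΔM. The 10 levels thus kept their order apart from *Vhl*, *Arnt* and *Egln2*, which could not be ranked against each other within counting error.

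The rest of the pathway was described from lists of related genes. Of 6 other HIF subunits, inhibitors and co-activators, 3 had a mean of at least 1 FPKM, and 0 of these passed 1.5-fold in either direction on the scale with 1 FPKM added. The most abundant was *Ep300*, a histone acetyltransferase that HIF recruits, at 7.09 FPKM in WT against 9.03 in ΔM. The median log2 ratio of the 3 genes was 0.31. All 3 were higher in ΔM, beside 4000 higher and 4052 lower of the 8078 protein-coding genes. The 3 leave out *Hif1an*, which was lower in ΔM and is given below. *Cited2* and *Hif1an* were named after their values were seen, because both restrain HIF activity. *Cited2*, which competes with HIF for p300, was at 2.21 FPKM in WT against 3.72 in ΔM, a ratio of 1.68 (1.30 to 2.21). *Hif1an*, the asparaginyl hydroxylase that inhibits HIF, was at 1.15 FPKM in WT against 0.78 in ΔM, a ratio of 0.678 (0.512 to 0.891), and stayed below a mean of 1 FPKM.

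The 4 partners of VHL in the ubiquitin ligase ranged from 4.04 to 15.6 FPKM in WT and from 3.81 to 16.1 in ΔM. None of them passed 1.5-fold (0 of 4), and their median log2 ratio was -0.06. The highest by the mean of both libraries was *Tceb2*, which encodes elongin B, at 14.7 FPKM in WT against 16.1 in ΔM. The scaffold gene *Cul2*, named after its values were seen, was the highest in WT, at 15.6 FPKM (14.8 to 16.4) against 13.4 in ΔM (12.6 to 14.2). Of 7 other VEGF ligands and receptors, 4 had a mean of at least 1 FPKM. Of these, *Kdr* was at least 1.5-fold lower in ΔM and 0 were higher. The co-receptor gene *Nrp2* was the most abundant, at 56.99 FPKM in WT against 58.9 in ΔM, close to *Hif1a*. *Figf*, which encodes VEGF-D, was listed at 0 in both libraries.

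Of 20 classical HIF target genes, which include *Egln3* and *Vegfa*, 15 had a mean of at least 1 FPKM. One of these was at least 1.5-fold higher and 1 was at least 1.5-fold lower in ΔM, beside 4.82% and 5.36% of the 8078 protein-coding genes. Their median log2 ratio was 0.09 with a range from -0.68 to 1.34, and 11 of the 15 were higher and 4 lower in ΔM, beside 4000 higher and 4052 lower of the 8078 genes. *Ndrg1*, a stress-responsive gene, was at 77.4 FPKM in WT against 197.6 in ΔM, a ratio of 2.55 (2.38 to 2.74). *P4ha2*, a collagen prolyl hydroxylase, was at 1.62 FPKM in WT against 0.64 in ΔM, a ratio of 0.395 (0.181 to 0.818) from about 31.3 and 10.97 fragments. The most abundant target by mean level, the glycolytic regulator *Pfkfb3*, was at 146 FPKM in WT against 160 in ΔM, a ratio of 1.097 (1.06 to 1.13). The targets past 1.5-fold, *Ndrg1* and *P4ha2*, thus went in opposite directions. The intervals of *P4ha2*, 1.09 to 2.28 FPKM in WT and 0.320 to 1.15 in ΔM, overlapped with median transcript lengths, and those of *Ndrg1* did not. The counts of 11 and 4 go by direction only, whatever the size of the difference. They place *Vegfa*, at 3.07 FPKM in WT against 3.10 in ΔM, among the 11.

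**Figure D4:**
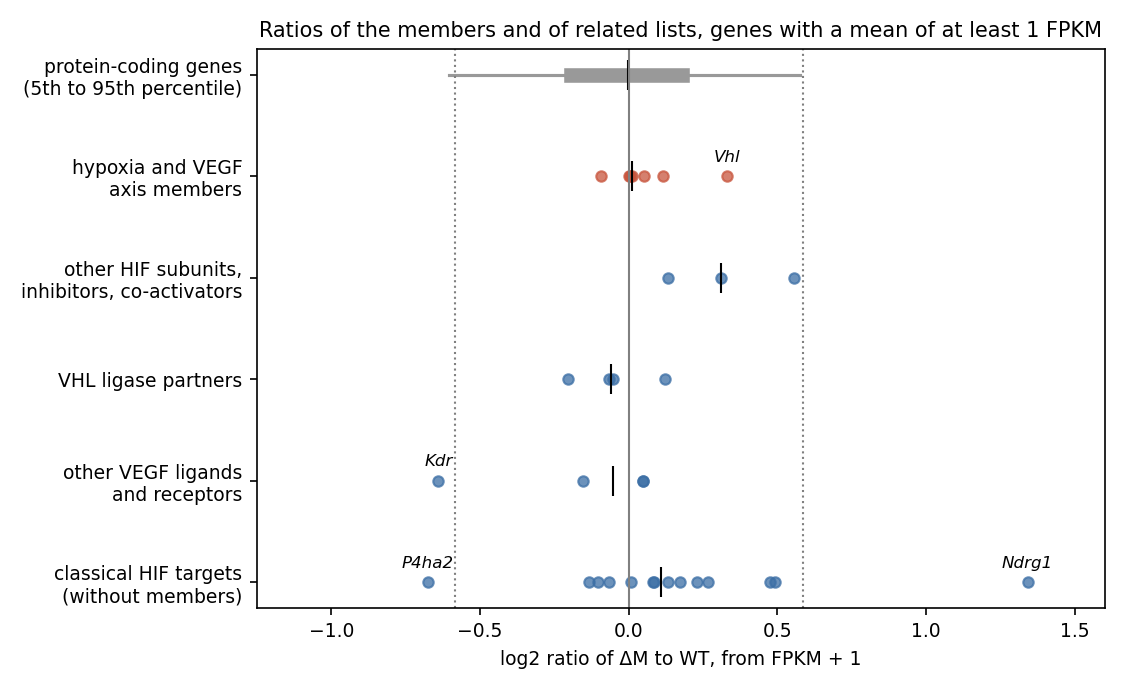
Log2 ratio of ΔM to WT, from FPKM plus 1, for genes of each list whose mean reached 1 FPKM (points), with the median as a black tick and the members left out of the HIF targets. The gray bar gives the quartiles and the gray line the 5th to 95th percentile of the protein-coding genes, and dotted lines mark 1.5-fold. All 7 hypoxia and VEGF axis members lie between -0.09 and 0.33, whereas *Ndrg1*, *P4ha2* and *Kdr* lie beyond 1.5-fold.

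HIF binds DNA at hypoxia-response elements with the core ACGTG or GCGTG. RefSeq promoter windows of 300 bases (GRCm38.p6) were searched for both cores on both strands, and 9 members other than *Epas1* were matched. At least 1 core was present in a window of 8 of these 9 genes, against 46.7% of the 27025 genes with a window. ACGTG alone was present in 5 of 9, against 21.8% of genes. *Hif1a* held 3 cores, and *Egln2* held 6 in 1 of its 2 windows. *Vegfa* held 2 in 1 of its 2 windows and 0 in the other, and *Vhl* held 0. Both cores contain CG, and the share of all genes was not matched for base composition, so enrichment was not tested. The windows are short, so elements outside them were not seen, and a core in a window is not a bound site.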

How the data were processed

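RNA was depleted of rRNA, fragmented, ligated to a 3′ adaptor and reverse-transcribed, and cDNA was selected by size. The authors removed adaptors, aligned the reads to mm9 using Segemehl, retained those mapping uniquely, and ran Cufflinks on Ensembl exons. The deposited FPKM values have 2 decimals and are given 1 per gene for 37451 genes, 1 of them without a number in ΔM. No count model was applied to them. Gene types, positions and transcript lengths came from GENCODE M1 (NCBIM37), which held 37039 of the identifiers. Coordinates are counted from 1.

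Depth was estimated by finding the fragment total and mean length (203 nt in WT, 204 nt in ΔM) at which low FPKMs of single-transcript genes of 500 to 1500 nt are whole multiples of 1 fragment. This held for 93.5% of 1277 values in WT and 93.3% of 1382 in ΔM within rounding and 0.03 fragments, against 28.1% and 26.7% by chance. The search was tested on simulated data. Effective lengths came from the median annotated transcript of a gene. The intervals are approximate for genes with several transcripts, since Cufflinks assigns fragments to isoforms. Intervals of ratios were exact binomial (Clopper-Pearson).

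The members and lists were chosen with earlier results of these data known, and some genes of these lists are not reported here. Genes named are all members and, from the other lists, the most abundant gene, genes past 1.5-fold and markers listed at 0, apart from those marked as named later. Log2 ratios used a pseudocount of 1 FPKM and a minimum mean of 1 FPKM, which understates the change of low genes. Alternatives concerned the pseudocount, the filter, the fold, centring, the background and transcript length. The software was pandas 2.3.3 and numpy 2.4.6 under Python 3.11.15, scipy 1.17.1 and matplotlib 3.10.9.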

Additional observations from a re-analysis of the deposited data

How the results depend on the processing

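No paired analysis was possible because each genotype has 1 library, and for that reason no library could be left out. Of 63 results recalculated under an alternative, 57 stayed within a range set by the counting limits of both libraries after adding 1 FPKM or, for counts and shares, within 1.5 times the first value, or, for upper counting limits, within 10%, and 6 moved. Transcript length entered this tally only through the upper WT limits. The ratio intervals of *Hif1a*, *Arnt* and *Flt1*, which left out 1 only with the longest transcript, are not part of it. The log2 ratio of *Epas1* was 0.06 with 1 FPKM added, 0.42 with 0.1 FPKM and 1.58 with no pseudocount. That of *Egln3* was -0.13, -0.67 and -1.28. That of *Vegfb* was -0.16, -0.42 and -0.52, which stayed within its range. These shifts follow from adding 1 FPKM to levels below it. With a fold of 2 in place of 1.5, the count of classical HIF targets lower in ΔM went from 1 to 0. With all genes in place of protein-coding genes, 11.2% were at least 1.5-fold higher and 7.51% lower in ΔM. The count of 0 members past 1.5-fold was the same in both directions under each of its 5 alternatives. A fold of 2 or a higher filter could not raise a count of 0, and centring shifted the ratios little. No alternative removed the filter and lowered the pseudocount together. The count therefore says nothing of *Epas1*, *Egln3* and *Vegfb* without 1 FPKM added. A planned search for a hydroxylation motif in the HIF proteins was not run. Depth limits *Epas1*, *Egln3* and *Vegfb* most.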
